A study of Mus musculus with 8 samples.

Results

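Genes for integrins, laminins and the other proteins that fasten the cell membrane to the surrounding matrix were examined in the ventricles of the embryonic mouse heart. The 47 genes were taken from a list of symbols, and all 47 were found among the 53465 Ensembl genes of the deposited table. They code for 12 integrin α subunits, 7 integrin β subunits, 10 laminin chains, 4 linker proteins of the basement membrane, 6 proteins of the dystrophin-glycoprotein complex and 8 proteins of the integrin adhesion complex inside the cell. Poly(A) RNA was sequenced from ventricles at embryonic day 15.5 in 4 libraries called *Nrg1GOF* and 4 called WT. Embryos of the first group carry the allele Rosa26Nrg-1, a transgene for neuregulin-1 at the Rosa26 locus, together with a cardiac Cre driver that the series title names Nkx2.5-Cre and the genotype label names Nkx5.5-Cre. The transgene is thus active in cells with a history of *Nkx2-5* expression, whereas neuregulin-1 itself is a secreted ligand of ErbB receptors. The second group is labelled as wild type, and the labels do not say whether its embryos carried the driver or the transgene alone. The series describes 1 ventricle sample per replicate but no litter or date, so the p values below measure the spread between these samples.

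Integrins are heterodimers of an α and a β subunit that span the membrane and bind matrix proteins outside the cell. Laminins are trimers of an α, a β and a γ chain that form the sheet of the basement membrane, which nidogens and perlecan join to the collagen network. Muscle cells hold this sheet by a pair of systems, the integrins, whose tails bind talin, with vinculin joined to it, and the kinase complex of ILK, and dystroglycan, which dystrophin ties to actin. In the developing heart the same receptors are also found on endocardium, coronary vessels, epicardium and fibroblasts.

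As a check of the genotypes, *Nrg1* was at 61.8 ± 1.90 CPM in *Nrg1GOF* and 4.03 ± 0.652 CPM in WT (SD, n = 4), which is a log2 change of 3.94 (SE 0.10, adjusted p = 8.26e-08). Here and below, log2 change stands for the fitted log2 of *Nrg1GOF* over WT. CPM is the usual scale of counts relative to library size, here after scaling by trimmed mean of M-values (TMM). Libraries held 8038641 to 26786039 counts, with *Nrg1GOF* library 4 the shallowest, and a floor of 3 counts corresponded to 0.112 to 0.373 CPM. WT libraries 1 and 2 lay close together, as did WT libraries 3 and 4, and the labels give no reason for this split. The median chi-square per gene between 2 WT libraries was 1.02 and 0.870 within these pairs and 2.59 to 3.13 across them. Between *Nrg1GOF* libraries 2 and 4, the latter the shallowest, it was 1.07, and between other *Nrg1GOF* libraries it was 1.70 to 3.04. If the members of a WT pair share tissue or RNA, which was not tested, n = 4 overstates the number of independent WT samples and the p values are too small. Comparisons with each WT pair alone are therefore given for single genes where they change a call. Defining transcripts of ventricular muscle were present in all libraries, with *Myh7* at 12616 ± 1153 CPM in *Nrg1GOF* and 17606 ± 539.9 CPM in WT (SD, n = 4).

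More adhesion genes were higher than lower in *Nrg1GOF*, and the integrin subunits *Itgav*, *Itga9*, *Itgb5* and *Itga6* were among those with the largest changes. Of the 47 genes, 46 passed the filter on low counts, and 23 of these (50%) had an adjusted p under 0.05 in the quasi-likelihood test of edgeR with Benjamini-Hochberg adjustment over all 15580 tested genes, where 28.7% of all tested genes did. Higher calls numbered 19 (41.3% of the 46, against 15.9% of all tested genes), and lower calls numbered 4 (8.70%, against 12.8%). The median log2 change over the 46 genes was 0.23, against -0.012 over all tested genes. The libraries of the genotypes did not overlap in 23 of the 46 genes (50%, against 30.7% of all tested genes). All 10 integrin subunits that passed the test were higher, out of 18 tested. The laminin chains gave 3 higher and 1 lower call among 10, and the proteins of the integrin adhesion complex inside the cell gave 4 higher and 3 lower calls among 8. With WT libraries 1 and 2 summed to 1 sample, and WT libraries 3 and 4 to another, 12 adhesion genes were called (10 higher, 2 lower), with 2464 of all genes (15.3% of those tested). The calls of *Itga4*, *Itgb3*, *Lama1*, *Lama3*, *Lama4*, *Sgcb*, *Ilk*, *Parva*, *Lims2*, *Tln1* and *Tln2* were lost by this. With WT libraries 1 and 2 as sole controls 12 adhesion genes were higher and 5 lower, and with WT libraries 3 and 4 as sole controls 24 were higher and 2 lower. Over all tested genes 18.6% were called with the first pair and 27.7% with the second, and 56.4% and 57.9% of these calls were higher. The median log2 change of the adhesion genes was 0.13 with the first pair and 0.32 with the second. Over all tested genes it was 0.0079 and 0.00082.

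**Figure D1:**
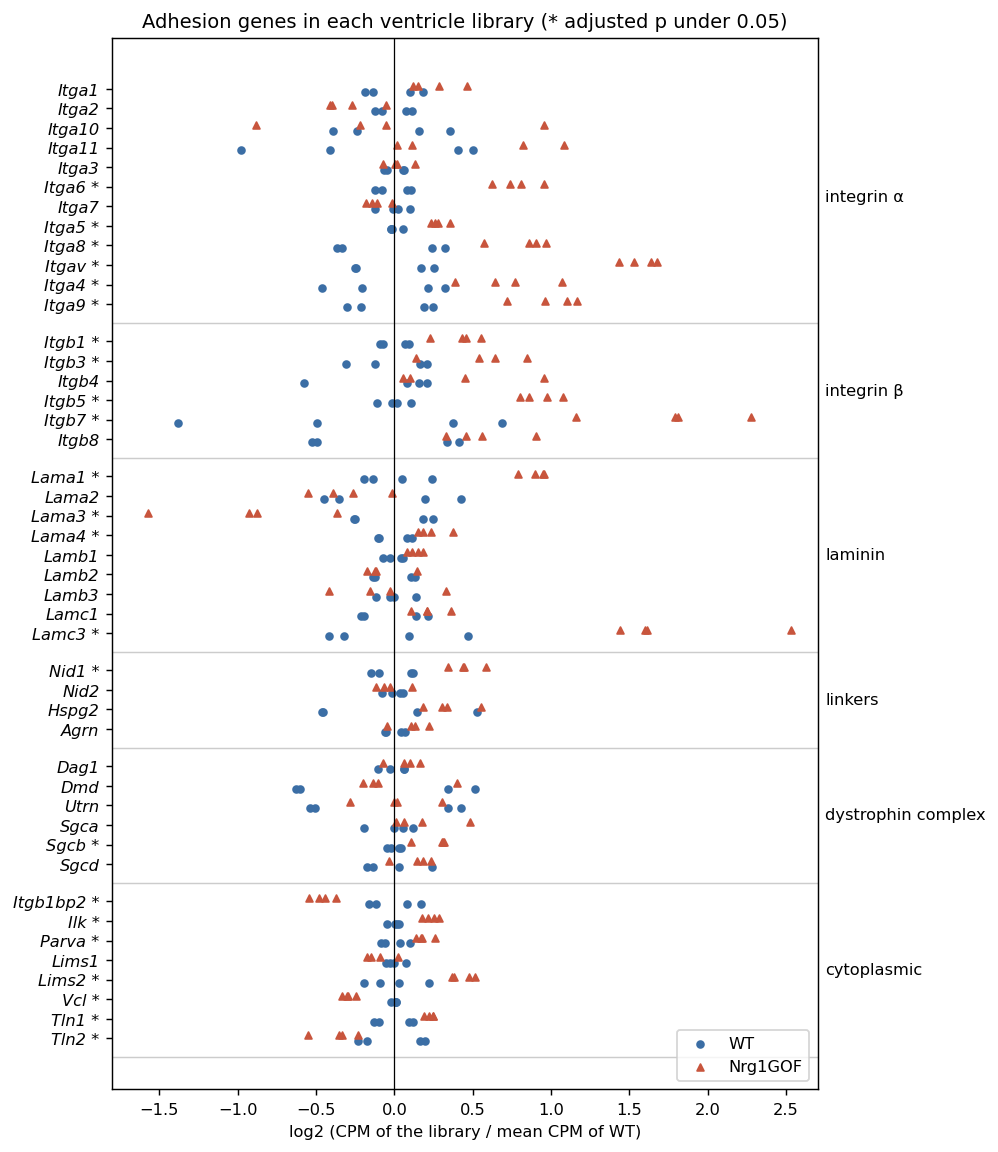
Level of each tested adhesion gene except *Lama5* in each of the 8 libraries, as the log2 ratio of its CPM to the mean CPM of WT, ordered by role. Blue circles are WT and red triangles *Nrg1GOF* libraries, an asterisk marks an adjusted p under 0.05, and *Lamc3*, *Itgb7* and *Itgav* lie farthest to the right and *Lama3* farthest to the left.

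Integrins of the αv class bind the RGD motif of fibronectin, vitronectin and the latent form of TGF-β. *Itgav*, the αv subunit (ENSMUSG00000027087, GRCm38 chromosome 2, 83724397 to 83806916, plus strand), was at 240.1, 217, 203 and 234 CPM in *Nrg1GOF* and 84.6, 89.9, 63.5 and 63.2 CPM in WT, with the libraries in the order of their numbers here and for all later genes. The lowest *Nrg1GOF* library was above the highest WT library by more than the range within either group, and the 2 WT libraries numbered 3 and 4 were the lowest of all. The log2 change was 1.57 (SE 0.12, adjusted p = 3.23e-05), and it was 1.36 with WT libraries 1 and 2 as sole controls and 1.83 with WT libraries 3 and 4 as sole controls. *Itgb5*, which pairs with αv in the vitronectin receptor αvβ5 (chromosome 16, 33829665 to 33949338, plus strand), was at 258, 279, 248 and 300.0 CPM in *Nrg1GOF* and 153, 144, 132 and 141 CPM in WT. Its groups were likewise separate, with a log2 change of 0.93 (SE 0.072, adjusted p = 3.23e-05). Exons of *Itgav* share bases with *Gm13684* on the opposite strand, and the strand setting used for counting is not given in the sources used here.

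The 250 bases before the RefSeq start of *Itgav* and *Itgb5* are printed here because both genes of 1 receptor rose with the lowest adjusted p value of the 46 genes, and those of *Vcl* because vinculin fell. All are on the plus strand of GRCm38.p6, from RefSeq, and were chosen after the values were seen. Capitals mark matches on either strand, overlaps allowed, to the GC box GGGCGG, the TEAD core GGAATG and the CArG box, and the ETS core CCGGAAG and the AP-1 motif TGANTCA were also searched.
*Itgav*, chr2:83724147-83724396: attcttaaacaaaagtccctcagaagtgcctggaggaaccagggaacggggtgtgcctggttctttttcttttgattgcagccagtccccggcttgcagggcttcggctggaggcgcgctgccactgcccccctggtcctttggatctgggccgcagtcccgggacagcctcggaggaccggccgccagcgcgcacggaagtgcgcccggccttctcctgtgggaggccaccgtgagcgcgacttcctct
*Itgb5*, chr16:33829415-33829664: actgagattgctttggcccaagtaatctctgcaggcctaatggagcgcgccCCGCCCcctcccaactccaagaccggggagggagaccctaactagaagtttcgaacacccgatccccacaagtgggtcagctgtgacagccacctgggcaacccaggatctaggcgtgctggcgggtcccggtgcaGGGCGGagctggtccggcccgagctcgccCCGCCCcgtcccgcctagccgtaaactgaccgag
*Vcl*, chr14:20929148-20929397: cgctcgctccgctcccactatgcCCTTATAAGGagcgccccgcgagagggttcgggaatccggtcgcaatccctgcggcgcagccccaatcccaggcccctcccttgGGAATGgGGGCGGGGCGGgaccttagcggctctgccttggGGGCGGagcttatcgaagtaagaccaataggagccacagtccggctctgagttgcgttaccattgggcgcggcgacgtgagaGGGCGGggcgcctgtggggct
None of the 5 motifs was found in the *Itgav* window. The *Itgb5* window held 3 GC boxes, and the *Vcl* window held 4 GC boxes, 1 TEAD core and 1 CArG box. Over 32851 promoter windows of the same length, 32.7% held a GC box, 12.6% a TEAD core, 6.91% an ETS core, 6.75% an AP-1 motif and 1.47% a CArG box. Windows were at hand for 33 of the 47 adhesion genes (42 windows). Of these windows 47.6% held a GC box, 14.3% a TEAD core, 7.14% an ETS core, 2.38% an AP-1 motif and 9.52% a CArG box, the last in 4 windows, those of *Dmd*, *Itgb6*, *Lama2* and *Vcl*. A match of letters is a description of the window and not a binding site.

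The other RGD-binding α subunits also rose. *Itga8*, the α8 subunit known from kidney and mesenchymal cells (chromosome 2, 12106632 to 12301922, minus strand), was at 63.9, 61.2, 59.3 and 48.5 CPM in *Nrg1GOF* and 38.6, 40.9, 25.9 and 25.4 CPM in WT. The groups did not overlap, although WT libraries 1 and 2 were nearer to *Nrg1GOF* library 4 than to WT libraries 3 and 4. Its log2 change was 0.84 (SE 0.16, adjusted p = 0.00383), and it was 0.56 with WT libraries 1 and 2 as sole controls. *Itga5*, the α5 subunit of the fibronectin receptor, was at 292 ± 10.4 CPM in *Nrg1GOF* and 240.2 ± 6.38 CPM in WT (SD, n = 4; log2 change 0.28, SE 0.048, adjusted p = 0.00200). Thus 3 of 3 RGD-binding α subunits rose, by log2 values of 0.28 to 1.57, where 15.9% of all tested genes were called higher, and this grouping was made after the values were seen.

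The α4 and α9 subunits form a class of their own, with VCAM-1, fibronectin and tenascin among their ligands, and both rose. *Itga9*, known from lymphatic valves and smooth muscle (chromosome 9, 118606690 to 118901003, plus strand), was at 198, 189, 146 and 172 CPM in *Nrg1GOF* and 101, 105, 71.7 and 76.3 CPM in WT. All *Nrg1GOF* libraries were above all WT libraries, with library 3 the lowest of its group, and the log2 change was 1.00 (SE 0.14, adjusted p = 0.000664). *Itga4*, which the epicardium needs to stay attached to the heart (chromosome 2, 79255426 to 79333123, plus strand), was at the lower level of 16.7, 13.6, 12.4 and 10.4 CPM in *Nrg1GOF* and 9.21, 9.93, 6.87 and 5.78 CPM in WT. The groups were adjacent, with 10.4 CPM the lowest value of *Nrg1GOF* and 9.93 CPM the highest of WT. The log2 change of *Itga4* was 0.76 (SE 0.19, adjusted p = 0.0155), and it was no longer called with WT libraries 1 and 2 as sole controls (0.49, adjusted p = 0.0896). Exons of *Itga4* share bases with *Cerkl*, and those of *Itga8* with *E030013I19Rik*, both on the opposite strand.

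Among the laminin-binding α subunits, *Itga6* alone passed the test. *Itga6*, the α6 subunit of endothelium and epithelium (chromosome 2, 71745616 to 71858416, plus strand), was at 387, 348, 307 and 331 CPM in *Nrg1GOF* and 211, 214, 189 and 183 CPM in WT. The gap between the groups was wider than the range of either, and the log2 change was 0.79 (SE 0.082, adjusted p = 0.000133). *Itga3*, common in epithelia, had a log2 change of 0.017 (SE 0.060, adjusted p = 0.870), and *Itga7*, the laminin receptor subunit of mature muscle, one of -0.11 (SE 0.083, adjusted p = 0.359). None of the 4 collagen-binding subunits was called, where 28.7% of all tested genes were. Of these, *Itga1* had a log2 change of 0.26 (adjusted p = 0.0861), which passed the test with WT libraries 3 and 4 as sole controls (0.43, adjusted p = 0.0144) and not with WT libraries 1 and 2 (0.12, adjusted p = 0.483), and *Itga2* one of -0.27 (adjusted p = 0.0656), whereas *Itga10* and *Itga11*, known from cartilage and fibroblasts, were at means of 0.808 to 2.97 CPM and scattered widely.

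β subunits decide which α subunits can reach the cell surface. *Itgb1*, the partner of most of the α subunits above (chromosome 8, 128685654 to 128733200, plus strand), was at 1417, 1307, 1135 and 1327 CPM in *Nrg1GOF* and 1032, 1012, 908 and 919 CPM in WT. The groups did not overlap, and the log2 change was 0.42 (SE 0.078, adjusted p = 0.00297). *Itgb3*, which pairs with αv and with the platelet subunit αIIb (chromosome 11, 104608000 to 104670476, plus strand), was at 24.5, 21.3, 19.8 and 15.001 CPM in *Nrg1GOF* and 15.3, 15.8, 12.5 and 11.02 CPM in WT. Here the groups overlapped, since *Nrg1GOF* library 4 was below WT libraries 1 and 2. The log2 change was 0.58 (SE 0.16, adjusted p = 0.0198), and the call was lost without *Nrg1GOF* library 1 or 2 or WT library 3 or 4 (0.48 to 0.55, adjusted p between 0.0542 and 0.0623) and with WT libraries 1 and 2 as sole controls (adjusted p = 0.130).

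The remaining β subunits were below the level of *Itgb3*. *Itgb7*, a leukocyte subunit (chromosome 15, 102215995 to 102231944, minus strand), had 14, 29, 23 and 8 counts in *Nrg1GOF* and 12, 2, 5 and 9 counts in WT, or 0.635, 1.38, 0.984 and 1.00 and 0.459, 0.109, 0.202 and 0.369 CPM. All *Nrg1GOF* values were above all WT values on the CPM scale, and 1 WT library was under the floor of 3 counts. Its log2 change was 1.75 (SE 0.42, adjusted p = 0.0117), with an adjusted p of 0.0735 with WT libraries 1 and 2 as sole controls. *Itgb8*, which binds latent TGF-β together with αv, had a log2 change of 0.59 (SE 0.23, adjusted p = 0.0832), with WT libraries 1 and 2 at the level of *Nrg1GOF* (0.21, adjusted p = 0.390) and WT libraries 3 and 4 below it (1.11, adjusted p = 0.00207). *Itgb4*, the hemidesmosome subunit, was not called (log2 change 0.46, adjusted p = 0.234), and the epithelial *Itgb6*, with no library above 0.454 CPM, was not tested.

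Levels between genes were compared per length, as CPM per kilobase of annotated exon. *Itgb1* was by far the highest integrin transcript, at 318 in *Nrg1GOF* and 237 in WT, and the next in WT was *Itga5* at 48.7. *Itgav* stood at 20.8 in *Nrg1GOF* and 7.01 in WT, which moved it past *Itga1*, whose levels were 10.4 and 8.68. As a share of the summed per-length levels of the 12 α subunits, *Itgav* made up 12.1% ± 0.43 in *Nrg1GOF* and 6.05% ± 0.76 in WT (SD, n = 4). *Itga9* made up 13.3% ± 1.08 and 9.91% ± 1.31, and *Itga6* 22.1% ± 0.96 and 19.1% ± 0.36. The share of *Itga5* was 34.5% ± 1.88 in *Nrg1GOF* and 42.4% ± 3.32 in WT, so that it was lower although the gene's level rose. With the longest transcript as the length, *Itga6* made up 32.3% in *Nrg1GOF* and 28.8% in WT and *Itga5* 26.9% and 34.1%, so that the order of these subunits in *Nrg1GOF* depends on the length used. These shares are given as a description, without a test.

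**Figure D2:**
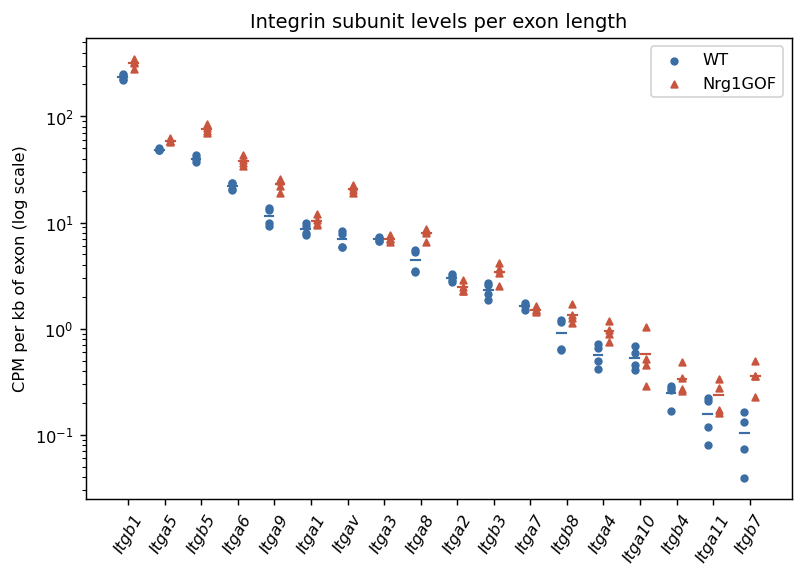
Level of the 18 tested integrin subunits in CPM per kilobase of annotated exon (log scale), ordered by the mean of WT. Blue circles are WT libraries, red triangles *Nrg1GOF* libraries and short lines the group means. *Itgb1* lies above all other subunits in both genotypes, and *Itgav* is the subunit whose groups lie farthest apart among those above 1 CPM per kilobase.

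Several of these subunits are made by cells other than cardiomyocytes, and marker lists of such cells moved with the genotype. For the calls below, 15.9% of all tested genes were called higher and 12.8% lower. The summed level of 7 fibroblast markers was 7156 to 9165 CPM in *Nrg1GOF* and 3841 to 5251 CPM in WT, and 7 of 7 were called higher. That of 5 macrophage markers was 81.6 to 97.6 CPM and 43.6 to 53.6 CPM, with 5 of 5 called higher. That of 6 epicardial markers was 195 to 221 CPM and 151 to 173 CPM (4 higher, 1 lower), and that of 7 endothelial and endocardial markers was 1209 to 1332 CPM and 1133 to 1158 CPM (4 higher). Atrial markers summed to 1585 to 1757 CPM and 988 to 1101 CPM (3 of 5 higher). In the other direction, 6 cardiomyocyte markers summed to 30130 to 34925 CPM in *Nrg1GOF* and 37160 to 38085 CPM in WT (3 lower), and 6 markers of smooth muscle and pericytes to 899 to 997 CPM and 1225 to 1429 CPM (2 higher, 3 lower). The groups overlapped for 5 red blood cell markers (4509 to 7568 CPM and 3824 to 10919 CPM, none called) and 3 neural crest markers (3.75 to 9.49 CPM and 5.40 to 10.9 CPM, none called). The red blood cell sum split by WT pair, with 10919 and 10056 CPM in WT libraries 1 and 2 and 4672 and 3824 CPM in WT libraries 3 and 4. No listed marker was at 0 in every library. The part of these cells in the integrin and laminin levels was not tested, and in bulk tissue fewer cells of a type and less RNA per cell cannot be told apart.

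**Figure D3:**
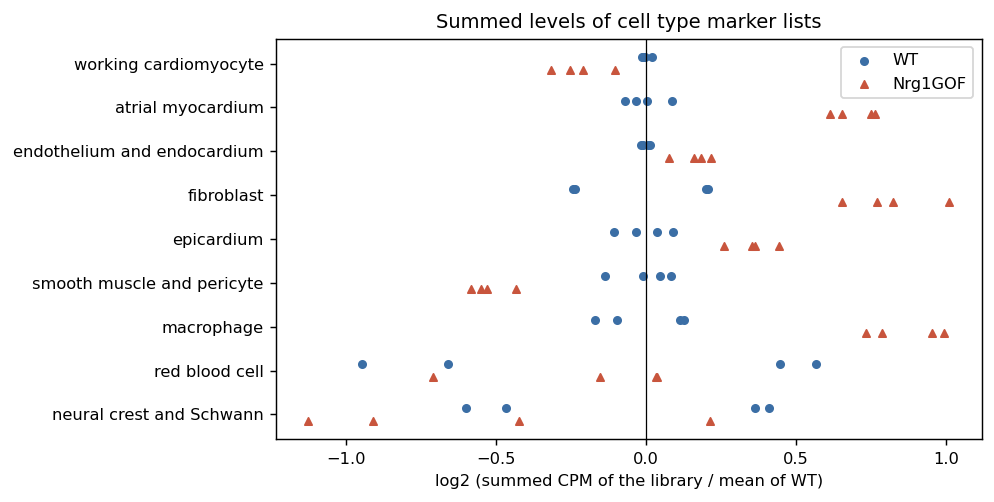
Summed CPM of each list of cell type markers in each library, as the log2 ratio to the mean of WT. Each sum follows the most abundant markers of its list. Blue circles are WT libraries and red triangles *Nrg1GOF* libraries. All *Nrg1GOF* libraries lie to the right of WT for fibroblast, macrophage, atrial, epicardial and endothelial lists and to the left for cardiomyocytes and for smooth muscle and pericytes.

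Among the laminin chains, the abundant *Lama4*, *Lamb1* and *Lamc1*, which together form a laminin of vessels and muscle, had small log2 changes of 0.13 to 0.24. *Lamc1*, the γ chain of most laminins (chromosome 1, 153218922 to 153332786, minus strand), was at 1016, 915, 853 and 914 CPM in *Nrg1GOF* and 873, 921, 684 and 691 CPM in WT. WT libraries 1 and 2 lay within the range of *Nrg1GOF* and WT libraries 3 and 4 below it, and the log2 change of 0.22 (SE 0.11, adjusted p = 0.149) was not called. With WT libraries 3 and 4 as sole controls *Lamc1* passed the test (0.43, adjusted p = 0.00533), and with WT libraries 1 and 2 it did not (0.042, adjusted p = 0.786). *Lamb1* had separate groups but missed the threshold, with a log2 change of 0.13 (SE 0.051, adjusted p = 0.0805). It passed with DESeq2, with scaling by library total, with a filter on CPM and without *Nrg1GOF* library 3. *Lama4*, the α chain of endothelial laminin, was called higher at 0.24 (SE 0.073, adjusted p = 0.0340). The call of *Lama4* was lost without *Nrg1GOF* library 1 or 2 or WT library 3 or 4 (0.19 to 0.24, adjusted p between 0.0823 and 0.102) and with WT libraries 1 and 2 as sole controls (adjusted p = 0.273). *Lama2*, the muscle chain whose loss causes a congenital muscular dystrophy, was at -0.29 (SE 0.19, adjusted p = 0.308), with -0.60 (adjusted p = 0.0143) for WT libraries 1 and 2 and 0.12 (adjusted p = 0.521) for WT libraries 3 and 4 as sole controls, so that its direction depended on the WT pair. *Lama5* and *Lamb2* at -0.099 and -0.060 were not called either.

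The 4 laminin calls included 3 chains of very low level. *Lama1*, the α chain of early embryonic basement membranes (chromosome 17, 67697259 to 67822647, plus strand), had 36, 33, 34 and 13 counts in *Nrg1GOF* and 26, 16, 19 and 18 in WT, or 1.63, 1.57, 1.45 and 1.63 and 0.994, 0.873, 0.768 and 0.738 CPM. The groups were separate after scaling, with a log2 change of 0.89 (SE 0.21, adjusted p = 0.0107), which was not called with WT libraries 1 and 2 as sole controls (adjusted p = 0.119). *Lamc3*, the γ3 chain (chromosome 2, 31887291 to 31946539, plus strand), had 26, 13, 13 and 5 counts in *Nrg1GOF* and 4, 4, 7 and 4 in WT, or 1.18, 0.619, 0.556 and 0.625 and 0.153, 0.218, 0.283 and 0.164 CPM. *Nrg1GOF* library 1 was the highest, all 4 exceeded WT, and the log2 change was 1.87 (SE 0.39, adjusted p = 0.00560).

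*Lama3*, an α chain of epithelial basement membranes (chromosome 18, 12333819 to 12583013, plus strand), was the laminin chain that fell. It was at 3.13, 3.24, 4.62 and 2.0001 CPM in *Nrg1GOF* and 7.07, 6.76, 4.97 and 4.999 CPM in WT, so that *Nrg1GOF* library 3 was close to WT libraries 3 and 4. The log2 change was -0.83 (SE 0.23, adjusted p = 0.0233). Its call was lost without *Nrg1GOF* library 1 or 2 or WT library 1 or 2 (-0.82 to -0.73, adjusted p between 0.0541 and 0.0649) and with WT libraries 3 and 4 as sole controls (-0.56, adjusted p = 0.147). *Lamb3*, the β chain with which it assembles, was at -0.070 (SE 0.15, adjusted p = 0.777). Exons of *Lama3* and *Lamc3* share bases with *Gm29200* and *Gm13441* on the opposite strand.

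The makeup of the α chains was compared within each library, as the per-length level of each chain in percent of the 5 chains together, with a two-sided exact permutation test over the 70 ways to split 8 libraries into 4 and 4. *Lama4* made up 72.0%, 73.1%, 71.5% and 72.6% in *Nrg1GOF* and 65.9%, 62.8%, 69.1% and 68.3% in WT, a difference of 5.82 percentage points (exact p = 0.0286, adjusted over the 5 chains 0.0357). *Lama5*, the chain of mature vessels and epithelia, made up 17.9% ± 0.68 in *Nrg1GOF* and 20.6% ± 0.96 in WT (SD, n = 4; exact p = 0.0286, adjusted 0.0357). *Lama2* made up 9.05% ± 0.97 and 11.8% ± 2.04, a difference that missed the threshold (exact p = 0.0571, adjusted 0.0571). With the longest transcript as the length its share differed by -2.89 points (exact p = 0.0286), so that this outcome depends on the length used. The rare *Lama3* and *Lama1* made up 0.461% and 0.247% in *Nrg1GOF* and 0.903% and 0.143% in WT, with separate groups for both (exact p = 0.0286, adjusted 0.0357). An exact p of 0.0286 is the smallest that 4 against 4 libraries allow.

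Ratios of related genes, which do not depend on the scaling of a library, were compared in the same way for 8 pairs. *Tln2* to *Tln1* gave log2 ratios of -0.88, -0.98, -1.15 and -0.99 in *Nrg1GOF* and -0.36, -0.30, -0.45 and -0.54 in WT, a difference of -0.59. *Lims2* to *Lims1* differed by 0.54, *Itga7* to *Itga5* by -0.39, *Nid2* to *Nid1* by -0.48 and *Lama4* to *Lama2* by 0.50 on the log2 scale. In single libraries, *Lama4* to *Lama2* was at 2.41, 2.65, 2.44 and 2.76 in *Nrg1GOF* and 1.92, 1.72, 2.37 and 2.28 in WT on the log2 scale. *Nid2* to *Nid1* was at -1.39, -1.22, -1.07 and -1.20 in *Nrg1GOF* and -0.93, -0.87, -0.61 and -0.54 in WT. WT libraries 3 and 4 were thus nearer to *Nrg1GOF* than WT libraries 1 and 2 for the former pair, and farther from it for the latter. The groups were separate in these 5 pairs (exact permutation p = 0.0286 each, adjusted over 8 pairs 0.0457). For the other pairs the differences were -0.19 for *Lamb2* to *Lamb1* (exact p = 0.171), 0.37 for *Itga11* to *Itga1* (exact p = 0.4) and 0.0031 for *Dmd* to *Utrn* (exact p = 0.971).

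**Figure D4:**
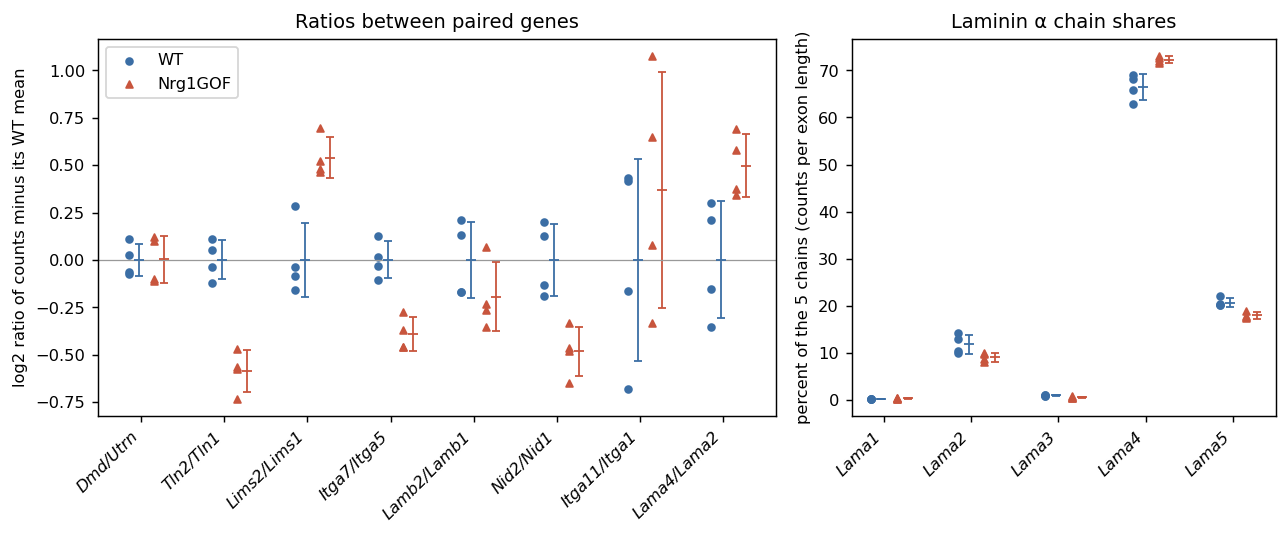
Left, log2 ratios of counts for 8 pairs of related genes in each library, minus the mean of WT. Right, the per-length share of each laminin α chain in percent of the 5 chains. Blue circles are WT, red triangles *Nrg1GOF*, and bars the mean and SD of 4 libraries. *Tln2*/*Tln1*, *Itga7*/*Itga5* and *Nid2*/*Nid1* are lower and *Lims2*/*Lims1* and *Lama4*/*Lama2* higher in all *Nrg1GOF* libraries, and *Lama4* holds the largest share in both genotypes.

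Of the 4 linkers of the basement membrane, *Nid1* rose. *Nid1*, nidogen-1, which bridges laminin γ1 and collagen IV, was at 492 ± 33.8 CPM in *Nrg1GOF* and 358 ± 33.8 CPM in WT (SD, n = 4), a log2 change of 0.46 (SE 0.078, adjusted p = 0.00199). *Nid2*, nidogen-2, was at 211 ± 14.5 and 214 ± 8.70 CPM (log2 change -0.022, adjusted p = 0.8293). *Hspg2*, perlecan, was at 1261, 1061, 976 and 1086 CPM in *Nrg1GOF* and 949.7, 1236, 627 and 624 CPM in WT, so that WT library 2 was above 3 of the *Nrg1GOF* libraries and the other WT libraries below all of them. Its log2 change was 0.35 (SE 0.20, adjusted p = 0.236), 0.0027 with WT libraries 1 and 2 as sole controls and 0.82 (adjusted p = 0.000808) with WT libraries 3 and 4 as sole controls. *Agrn*, agrin, which binds dystroglycan, was not called at 0.11 (adjusted p = 0.260).

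The dystrophin-glycoprotein complex gave 1 call among 6 genes (16.7%, below the 28.7% of all tested genes). *Dag1*, the precursor of both dystroglycan subunits (chromosome 9, 108204634 to 108263958, minus strand), was at 617, 575, 522 and 589 CPM in *Nrg1GOF* and 574, 574, 539.7 and 513 CPM in WT. The groups overlapped, with a log2 change of 0.066 (SE 0.066, adjusted p = 0.501). *Dmd*, dystrophin, was at 128, 88.0, 84.1 and 89.9 CPM in *Nrg1GOF* and 123, 138, 63.6 and 62.7 CPM in WT, so that the WT libraries fell on either side of the *Nrg1GOF* libraries other than library 1. The resulting log2 change of *Dmd* was 0.014 (SE 0.26, adjusted p = 0.977), and it was -0.42 (adjusted p = 0.0960) with WT libraries 1 and 2 as sole controls and 0.64 (adjusted p = 0.0197) with WT libraries 3 and 4 as sole controls. *Utrn*, its fetal relative utrophin, was at 0.025 (SE 0.23, adjusted p = 0.953), with -0.36 (adjusted p = 0.0914) for WT libraries 1 and 2 and 0.56 (adjusted p = 0.0178) for WT libraries 3 and 4 as sole controls, so that its direction depended on the WT pair. *Sgcb*, β-sarcoglycan, rose from 51.6 ± 1.49 to 62.0 ± 4.23 CPM (SD, n = 4; log2 change 0.26, SE 0.060, adjusted p = 0.00901), and *Sgca* and *Sgcd*, at 0.18 and 0.13, were not called. With the WT pairs summed *Sgcb* was at 0.27 (adjusted p = 0.0648).

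Of the 8 genes for proteins of the integrin adhesion complex inside the cell, 7 changed, 4 of them higher and 3 lower (28.7% of all tested genes were called). *Ilk*, the scaffold of the kinase complex (chromosome 7, 105736592 to 105742925, plus strand), was at 269, 282, 261 and 276 CPM in *Nrg1GOF* and 232, 224, 236 and 234 CPM in WT. The groups were separate, with a log2 change of 0.23 (SE 0.047, adjusted p = 0.00483), which became 0.24 (adjusted p = 0.0548) with the WT pairs summed. *Lims2*, which codes for a PINCH protein that binds ILK, was higher by 0.43 (adjusted p = 0.0201), and *Parva*, α-parvin, by 0.19 (adjusted p = 0.0344). *Lims1*, the other PINCH gene, was at -0.095 (adjusted p = 0.258). *Tln1*, talin-1, the talin of most cells, was higher by 0.23 (adjusted p = 0.0277), whereas *Tln2*, talin-2, the talin of mature striated muscle, was lower with a log2 change of -0.36 (adjusted p = 0.0318). *Vcl*, vinculin (chromosome 14, 20929398 to 21033676, plus strand), was at 348, 335, 328 and 336 CPM in *Nrg1GOF* and 407, 414, 415 and 415 CPM in WT. Vinculin thus had a tight and separate lower group, with a log2 change of -0.29 (SE 0.044, adjusted p = 0.00101). *Itgb1bp2*, melusin, a muscle protein that binds the tail of β1, fell by 0.46 on the log2 scale (SE 0.080, adjusted p = 0.00209).

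Some of these calls were lost when 1 library was left out, with the log2 changes given in parentheses. The call of *Parva* was lost without *Nrg1GOF* library 1 or 2 or WT library 2, 3 or 4 (0.16 to 0.20, adjusted p between 0.0549 and 0.103), and that of *Tln1* without *Nrg1GOF* library 1 or 2 or WT library 3 or 4 (0.18 to 0.23, adjusted p between 0.0623 and 0.0848). The call of *Tln2* was lost without *Nrg1GOF* library 2, 3 or 4 or WT library 1 or 2 (-0.37 to -0.29, adjusted p between 0.0620 and 0.0821), and that of *Lims2* without WT library 1 or 3 (0.37 and 0.40, adjusted p = 0.0526 and 0.0578). With WT libraries 1 and 2 as sole controls *Parva* and *Tln1* were not called (adjusted p = 0.273 and 0.242), and with WT libraries 3 and 4 as sole controls *Tln2* and *Lims2* were not (adjusted p = 0.228 and 0.0853). Exons of *Ilk* share bases with *Rrp8* and *Taf10*, those of *Vcl* with *Ap3m1*, those of *Tln1* with *Creb3* and those of *Lims2* with *Gpr17*, all on the opposite strand.

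A list of 39 further genes of the same complexes gave 17 calls among 37 tested (45.9%, against 28.7% of all tested genes). With the WT pairs summed 8 of these genes were called, and 15.3% of all tested genes. Of the 17 calls against the 4 WT libraries, 11 were higher (29.7%, against 15.9%) and 6 lower (16.2%, close to the 12.8% of all tested genes). The largest increases were those of *Itgb2*, the β subunit of leukocytes, at 0.66 (adjusted p = 0.0251), *Fn1*, fibronectin, at 0.66 (adjusted p = 0.00263), and *Zyx*, zyxin of focal adhesions, at 0.42 (adjusted p = 0.00173). *Fn1* was at 1450.5 ± 148 CPM in *Nrg1GOF* and 920.5 ± 155 CPM in WT (SD, n = 4). Among the largest decreases were those of *Nexn*, nexilin of the Z-disc, at -0.65 (adjusted p = 0.000133), and *Sntb1*, β1-syntrophin, at -0.34 (adjusted p = 0.00494). The call of *Itgb2* was lost without *Nrg1GOF* library 1 or WT library 1, 2 or 3 (0.55 to 0.65, adjusted p between 0.0551 and 0.0778), and with either WT pair as sole controls (0.71 and 0.62, adjusted p = 0.0908 and 0.0956).

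Several adhesion genes have long transcripts, and in some of the longest the spread within WT was wide. The log2 ratio of the mean CPM of WT libraries 1 and 2 to that of WT libraries 3 and 4 was 1.05 for *Dmd*, 0.91 for *Utrn*, 0.80 for *Hspg2* and 0.71 for *Lama2*. It was smaller for the long *Lama5* (11388 bases) and *Tln2* (12132 bases), at 0.35 and 0.38. For the shorter *Itga11* (4969 bases) and *Itga8* (5812 bases) it was 0.99 and 0.63. Over the 13 tested adhesion genes whose longest annotated transcript has at least 8000 bases the median of this ratio was 0.46, and over the other 33 it was 0.096. Over all tested protein-coding genes the medians were 0.31 (858 genes) and -0.0032 (12951 genes). Across the 46 genes the ratio correlated with the log2 transcript length at Pearson r = 0.642 and Spearman rho = 0.688, against 0.179 and 0.209 over 13809 protein-coding genes. These coefficients are across genes of the same 4 libraries, which are not independent, and the cut at 8000 bases was chosen after the data were seen. *Itgav*, whose longest transcript has 7054 bases, had a ratio of 0.46, well under its difference between the genotypes. For *Lama2*, *Hspg2*, *Dmd* and *Utrn* the ratio exceeded that difference in size. The same held for other genes, among them *Itgb8* (0.88 against 0.59), *Lamc1* (0.38 against 0.22) and *Tln2*, which was called lower (0.38 against -0.36).

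**Figure D5:**
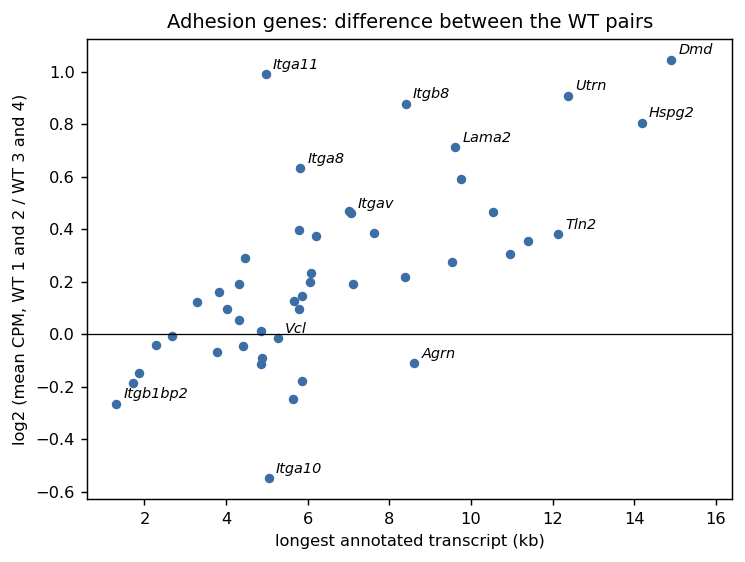
Log2 ratio of the mean CPM of WT libraries 1 and 2 to that of WT libraries 3 and 4 for each of the 46 tested adhesion genes, against the length of the longest annotated transcript in kilobases. Each point is a gene. *Dmd*, *Utrn* and *Hspg2* lie at the upper right. Of genes with shorter transcripts, *Itgb1bp2* and *Vcl* lie near or below 0, whereas *Itga11* and *Itga8* lie well above it.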

How the data were processed

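Poly(A) RNA of 8 ventricle libraries was measured by directional RNA-seq with single reads of 60 bases from 100 ng of RNA. Per the labels and the table name, the authors used RSEM with GRCm38 and Ensembl release 91 to obtain the deposited expected counts of each gene, which are unscaled for depth and length. The submitters' processing notes also name cutadapt and RSEM 1.3.1, whereas the aligner and the strand setting are not given in the sources used here. RSEM splits reads that map to more than 1 gene, and 14 adhesion genes share exonic bases with a gene on the opposite strand and 2 with one on the same strand.

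Groups and replicate numbers were taken from sample titles, and no library or column was left out. Counts were rounded, filtered with filterByExpr and scaled by TMM. The genotypes were compared in edgeR 4.0.16 (R 4.3.3) with its quasi-likelihood test, with Benjamini-Hochberg adjustment over 15580 genes and a threshold of 0.05. Standard errors were obtained from the F statistic and the log2 change. Tests were two-sided. When the edgeR test was run on simulated counts it missed part of the changed genes, and the recovery first asked of it was not reached and was then lowered. Coordinates and exon lengths came from GENCODE M21, also on GRCm38 but later than the release used for counting. Totals and floors cover counting error only, as reads carried no molecular identifiers. Alternatives were the edgeR likelihood ratio test, DESeq2 1.42.0, limma-voom (limma 3.58.1), 3 scalings, 2 filters, a replicate block, summed or single WT pairs, thinning, stricter thresholds and leaving out each library.

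The adhesion genes, their partner list and the marker lists were chosen with earlier results of these data known, and the grouping by role was made after the values were seen. Values per library are given for called genes with an absolute log2 fold change of at least 0.5 and for *Itgb1*, *Lamc1*, *Dag1* and *Ilk*, and for further genes where the libraries decide the value (*Vcl*, *Hspg2*, *Dmd*), which were chosen after their values were seen. Of the partner genes, the 3 highest and 3 lowest called were to be named, of which 1 is not reported here.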

Additional observations from a re-analysis of the deposited data

Results flagged for a closer look

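In 118 sets of 4 values, 1 for each genotype and each adhesion gene, ratio or share, the highest or lowest library was compared with the others by the gap to its nearest neighbour over the whole range. Chance alone is expected to single out about 1 set in 20, or 5.9 sets, and 6 were singled out. In WT these were library 3 for *Itga5*, at 250 CPM where the others were at 236 to 238 CPM, and library 2 for the share of *Lama5* among the laminin α chains, at 22.06% where the others were at 20.05% to 20.38%. In *Nrg1GOF* they were library 1 for *Dmd*, at 128 CPM against 84.1 to 89.9 CPM, and for *Lamc3*, at 1.18 CPM against 0.556 to 0.625 CPM, and library 3 for *Lamb2*, at 199 CPM against 160 to 166 CPM, and for *Sgcb*, at 55.6 CPM against 63.9 to 64.3 CPM.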

How the results depend on the processing

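With the replicate block, 4524 genes and 25 adhesion genes were called (20 higher, 5 lower) with 18 partner genes. Libraries of equal number correlated in their deviations from the group means at 0.129, 0.0492, 0.199 and 0.0668, so the numbers were not taken as pairs. Of 23 called adhesion genes, 11 kept call and direction in every alternative fit that could be made (up to 21), the stricter thresholds not counted: *Itga5*, *Itga6*, *Itga8*, *Itga9*, *Itgav*, *Itgb1*, *Itgb5*, *Itgb1bp2*, *Lamc3*, *Nid1* and *Vcl*. The other 12 lost the call at least once. The 9 genes not called that passed at least once were *Itga1*, *Itga2*, *Itgb8*, *Lama2*, *Lamb1*, *Lamc1*, *Hspg2*, *Dmd* and *Utrn*. Scaling by library total raised the share of higher calls among all genes from 55.4% to 65.4%.

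Summing the WT pairs, which leaves fewer samples, gave 2464 genes, 12 adhesion genes (10 higher, 2 lower) and 8 partner genes. With WT libraries 1 and 2 as sole controls 12 adhesion genes were higher and 5 lower, with 2999 of 16086 genes called (18.6%), and with WT libraries 3 and 4 these counts were 24 and 2, with 4487 of 16209 (27.7%). At an adjusted p under 0.01 the counts were 2535 genes, 13 adhesion genes (11 higher, 2 lower) and 11 partner genes, and with an absolute log2 fold change of at least 1 they were 724, 3 (3 higher, 0 lower) and 0. Leaving out 1 library gave 3239 to 4261 genes, 17 to 23 adhesion genes and 14 to 17 partner genes, with 14 to 21 adhesion genes higher and 2 to 4 lower, the lowest without *Nrg1GOF* library 2 or WT library 1 or 2. With the longest transcript as length, the share of *Lama2* differed by -2.89 points (exact p = 0.0286). Leaving out 1 library, the difference in the *Dmd* to *Utrn* ratio ranged from -0.036 to 0.041.

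Among single adhesion genes and named partner genes, sign changes in the alternatives run were confined to genes not called. Against WT libraries 1 and 2 alone the log2 fold changes were 0.068 for *Lamb2*, 0.022 for *Nid2*, -0.42 for *Dmd*, -0.36 for *Utrn* and -0.013 for *Sgcd*. Against WT libraries 3 and 4 alone they were -0.12 for *Itga10*, 0.12 for *Lama2* and 0.096 for *Lama5*. Thinned to the smallest library they were 0.025 for *Lamb3* and -0.039 for *Dmd*, and scaled by library total 0.022 for *Nid2*. Without 1 library, the lowest and highest values were -0.0079 and 0.049 for *Itga3*, -0.35 and 0.36 for *Itga10*, -0.16 and 0.0057 for *Lama5*, -0.18 and 0.046 for *Lamb3*, -0.063 and 0.018 for *Nid2*, -0.15 and 0.23 for *Dmd* and -0.12 and 0.20 for *Utrn*. The cause of these changes was not tested. Depth limits *Itgb7*, *Lama1* and *Lamc3*, with 2 to 36 counts per library, and *Itgb6*, which was not tested.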
